A study of Mus musculus with 24 samples.

Results

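To ask where activation of the Hedgehog (HH) pathway changes the acetylation of chromatin in fibroblasts, H3K27ac was mapped by ChIP-seq in NIH3T3 cells that received the agonist purmorphamine or DMSO. The comparison rests on 8 of the 24 samples in the series, chosen because their labels name NIH3T3 and one of the 2 treatments. They are 2 H3K27ac immunoprecipitations and 2 inputs for each treatment. NIH3T3 is an established mouse fibroblast line and so a single source of cells. Cells of both groups were held in medium with 0.5% calf serum for 24 h before treatment and were then cultured for 48 h with 400 nM purmorphamine or with its DMSO vehicle. Each immunoprecipitation used 1000000 cells. The labels of both groups also carry the letters LIF, which are not explained in the sources used here. The other samples come from embryonic mouse limb buds. Of these, the H3K27ac lists of wild-type (WT) and Shh-/- forelimbs (Swiss Webster, E10.5, 2 libraries each, pooled embryos) are used below for a side by side reading. The authors' methods describe the controls for Shh-/- embryos as WT mixed with heterozygous littermates, so the group labelled WT may hold both.

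HH ligands bind the receptor PTCH1 and so relieve its block on the membrane protein SMO. SMO then keeps the GLI transcription factors from being cut into repressors and allows GLI activators to form. Purmorphamine binds SMO and turns on the pathway without a ligand. Gli1, Ptch1 and Hhip are direct targets in many tissues, and Ptch1 and Hhip feed back on the pathway. NIH3T3 cells respond to HH agonists and are a standard culture model for the pathway. H3K27ac is acetylation of lysine 27 on histone H3, a mark of active promoters and enhancers.

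The authors called peaks once for each treatment, on both replicates against input, so each gene has 1 value with purmorphamine and 1 in control. There is no spread between replicates to set against a difference, and no p-value is given. The purmorphamine list held 87779 peaks that covered 56.6 Mb, and the control list held 90989 peaks that covered 60.4 Mb. Their ratio was 0.938, and the median peak was 350 bp wide in both. Depth cannot be read from the lists, and a gene without a peak had no enrichment past the authors' threshold, which is not the same as no acetylation. More cells with the mark and more of the mark per cell cannot be told apart. Both lists fitted the label of the cells. A peak lay within 1 kb of the start of 14 of 15 fibroblast markers in each list, among them Col1a1, Pdgfra and Vim, with Fap covered in neither. A peak lay there for 1 of 20 markers of other cell types in each list, a 100 bp piece at Tubb3 with purmorphamine and 650 bp at Gfap in control.

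Each peak was assigned to the protein-coding gene with the nearest start, and the bases that peaks covered were summed per gene. A gene with at least 1000 bp over both lists was compared, and it was called higher or lower where the ratio of covered bp reached 2-fold after 1000 bp was added to each value. Of 12032 genes compared, 438 (3.64%) were higher with purmorphamine and 726 (6.03%) were lower. The median log2 ratio was -0.06 and the middle 50% of genes lay between -0.32 and 0.12. The plot of covered bp per gene shows most genes close to the diagonal. Of the HH genes named in it, Gli1, Ptch1, Foxd1 and Mycn lie past 2-fold and Gli2 and Gli3 inside it.

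**Figure D1:**
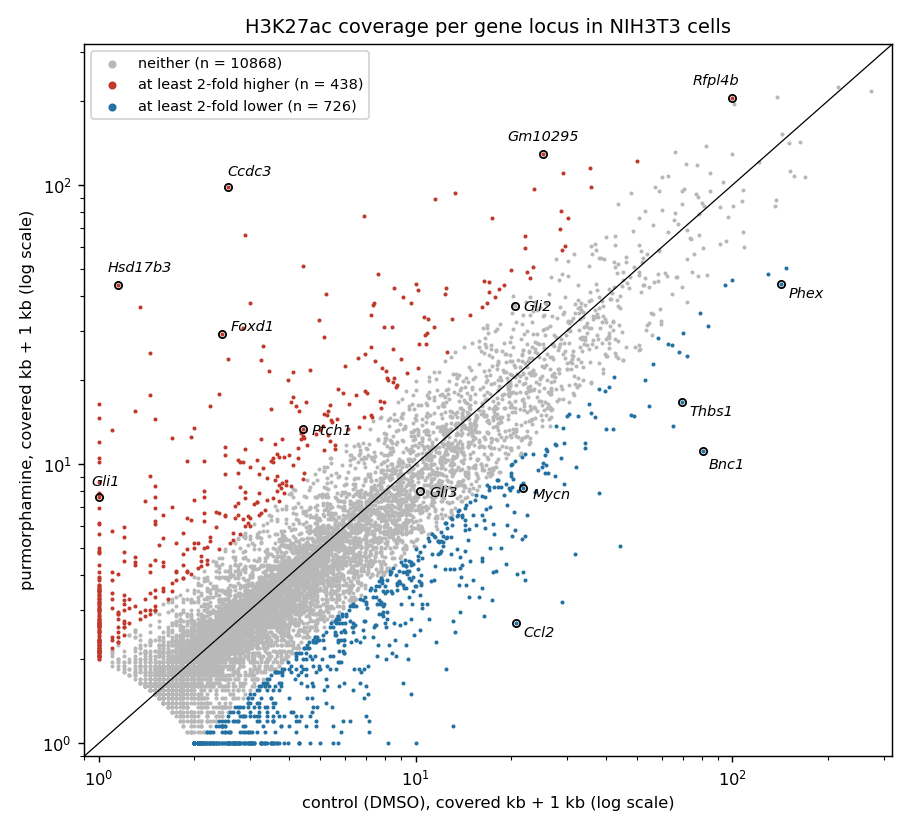
Covered kb per gene locus in the DMSO control list (horizontal axis) against the purmorphamine list (vertical axis), both on a log scale with 1 kb added, 1 point for each of 12032 genes and 1 pooled list per group. The 438 genes called higher (red) lie above the line of equality and the 726 called lower (blue) below it, and Gli1 stands at the left edge with no control peak.

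The HH targets Gli1, Ptch1 and Foxd1 were covered mainly or only with purmorphamine. Of 33 members of a list of HH targets and feedback genes, 28 could be compared. Among these 28, 4 were higher, among them Gli1, Ptch1 and Foxd1, and 1 was lower (Mycn), beside 3.64% and 6.03% of all genes. The median log2 ratio over the 28 was 0.11, against -0.06 over all genes, and 17 held more covered bp with purmorphamine while 11 held less. Over all 12032 genes, 4614 held more and 6927 less. No peak was found in either list for 4 members, Hhip, Sfrp1, Jag2 and Hand2. Hsd11b1 fell under the minimum with 650 bp with purmorphamine and none in control.

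Gli1, which encodes a GLI activator and is the most used readout of the pathway, was covered over 6650 bp by 3 peaks with purmorphamine and had no peak in control. The best of them, chr10:127340150-127343449 in the mm10 build, ranked 96 in its list, reached a log2 ratio of 5.60 over input and spanned the Gli1 start and its 5′ UTR. A second peak ranked 713 lay inside the gene. No control peak came within 24200 bp of any of the 3. In limb buds the same locus held 2300 bp in WT and none in Shh-/-.

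Ptch1, the receptor gene, was covered over 12350 bp by 15 peaks with purmorphamine and over 3400 bp by 4 peaks in control (log2 ratio 1.60). Its best peak, chr13:63561600-63566299, lay in the gene over exons of Ptch1 transcripts, about 9649 bp from the outermost start at its midpoint, and ranked 190 with purmorphamine. The best control peak lay inside that interval and ranked 8822. All 4 control peaks lay inside wider purmorphamine peaks, and 13 of the 15 purmorphamine peaks overlapped no control peak. Other genes within 2.5 Mb of Ptch1 also held more covered bp with purmorphamine, 2.32 times as much in sum (166700 bp against 71800 bp). Most of these purmorphamine bp lay at the adjacent Ercc6l2 (50250 bp against 3400 bp) and Hsd17b3 (42950 bp against 150 bp). Measured against all these other genes together, the log2 ratio of Ptch1 was 0.40, under the 2-fold line.

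Foxd1, a forkhead transcription factor, held 28200 bp in 50 peaks against 1450 bp in 6 peaks (log2 ratio 3.58), none of them within 1 kb of its start. Mycn, a proliferation-associated MYC family gene, held 7200 bp in 13 peaks against 20900 bp in 27 peaks (log2 ratio -1.42). All 13 Mycn peaks with purmorphamine overlapped a control peak. The other genes within 2.5 Mb of Mycn held 0.344 times as much with purmorphamine as in control, and against those neighbours the ratio of Mycn was 0.019 on the log2 scale.

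The next listed targets were inside 2-fold in the nearest-start assignment. Igf2, a growth factor gene, held 25900 bp against 15550 bp (log2 ratio 0.70), and Ccnd1, which encodes cyclin D1, held 14050 bp against 9000 bp (0.59). The co-receptor genes Cdon, Boc and Gas1, which HH signaling represses in several tissues, had log2 ratios of 0.60, 0.03 and -0.43. Against the other genes within 2.5 Mb, Cdon was past 2-fold at 1.39. Grem1, a BMP antagonist and HH target of the limb, held 39750 bp against 63250 bp (-0.66), where limb buds held 14700 bp in WT and 3900 bp in Shh-/-. In fibroblasts Grem1 was called lower within 100 kb of its start and over its gene body with 20 kb on either side. Osr1 held 59000 bp against 107700 bp (-0.86).

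Of 22 members of the signal transduction list that could be compared, 0 were higher and 0 lower (median log2 ratio 0.00), beside 3.64% and 6.03% of all genes. A total of 24 of all 26 members had a peak at the start in each list. Smo held 3200 bp with purmorphamine and 2450 bp in control (log2 ratio 0.28), and Sufu, which restrains GLI proteins, held 5950 bp against 4350 bp (0.38). Gli3, the main source of GLI repressor, held 7000 bp against 9350 bp (-0.37). Gli2, the main activator before Gli1 is made, held 35850 bp in 54 peaks against 19550 bp in 23 (0.84). Gli2 was past 2-fold in 3 alternatives, at 1.38 against its surroundings, 1.38 over its gene body with 20 kb on either side and 1.10 with peaks within 1 kb merged, and Gli3 was at -1.72 against its surroundings. Of the genes for HH ligands and their release, Hhat held 47050 bp against 28000 bp (0.73) and Disp1, needed for ligand release, was lower with 8750 bp against 24050 bp (-1.36). The plot of HH targets sets the fibroblast ratios beside those of the limb.

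**Figure D2:**
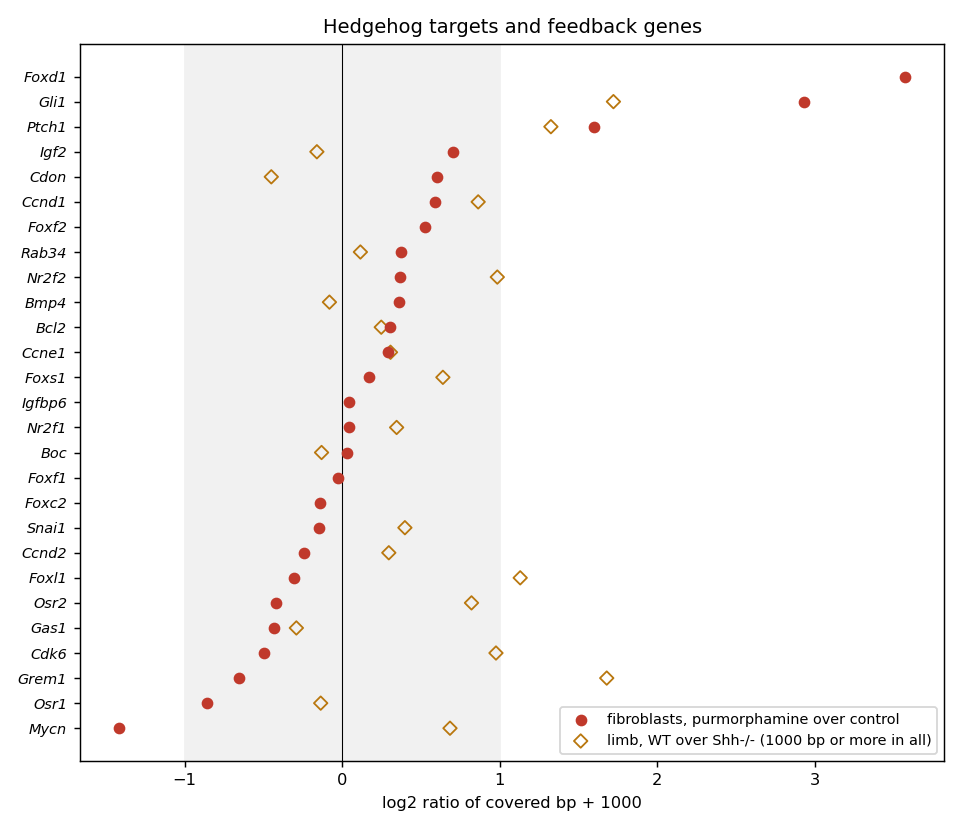
Log2 ratio of covered bp with 1000 bp added (horizontal axis) for HH targets and feedback genes, with filled circles for purmorphamine over DMSO control in fibroblasts and open diamonds for WT over Shh-/- in limb buds where the limb lists hold at least 1000 bp, 1 pooled list per group. Shading marks ratios inside 2-fold, and Foxd1, Gli1 and Ptch1 lie to its right and Mycn to its left in fibroblasts.

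GLI proteins bind a 9-letter site whose best-known form is GACCACCCA. The windows below, read from the GRCm38 (mm10) genome with 50 bases on either side of a match, show this sequence, in capitals, inside purmorphamine peaks of loci the results turn on. Each is printed 5′ to 3′ on the strand of the match.
Ptch1, chr13:63566385-63566493, plus strand: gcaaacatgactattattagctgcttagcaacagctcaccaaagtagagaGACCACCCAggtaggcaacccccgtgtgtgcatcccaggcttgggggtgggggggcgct
Hsd17b3, chr13:63988485-63988593, minus strand: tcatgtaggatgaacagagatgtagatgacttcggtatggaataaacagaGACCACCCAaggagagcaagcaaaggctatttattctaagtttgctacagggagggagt
Hsd17b3, chr13:64003261-64003369, plus strand: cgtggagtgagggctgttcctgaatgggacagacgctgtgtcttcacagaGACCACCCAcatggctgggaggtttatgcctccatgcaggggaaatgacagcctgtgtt
Ccdc3, chr2:5170188-5170296, minus strand: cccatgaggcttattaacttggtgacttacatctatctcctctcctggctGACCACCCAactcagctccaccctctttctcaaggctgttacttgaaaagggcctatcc
Ccdc3, chr2:5285304-5285412, plus strand: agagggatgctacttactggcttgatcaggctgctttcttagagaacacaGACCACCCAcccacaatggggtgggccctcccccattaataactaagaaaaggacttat
Gm10320, chr13:98486245-98486353, plus strand: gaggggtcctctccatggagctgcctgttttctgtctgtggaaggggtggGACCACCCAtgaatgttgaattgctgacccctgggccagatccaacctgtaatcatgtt
Bnc1, chr7:82032629-82032737, plus strand: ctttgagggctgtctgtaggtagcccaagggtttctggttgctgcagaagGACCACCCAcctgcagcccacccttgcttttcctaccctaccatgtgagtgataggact
The Ptch1 match is intronic, 7159 bp inside the gene, and lay in a purmorphamine peak ranked 1448 but in no control peak, although that peak as a whole overlapped smaller control peaks. The first Ccdc3 match is intronic, and the others are intergenic. The Bnc1 match, at a gene that was lower with purmorphamine, lay in peaks of both lists.
The Gli1 peaks held no exact match, which says only that these letters are not in those windows. They held 6 sites that differ from the motif in 1 letter. The intronic one nearest the start, 1265 bp into the gene and inside the peak ranked 96, is shown with the site in capitals:
Gli1, chr10:127340655-127340763, minus strand: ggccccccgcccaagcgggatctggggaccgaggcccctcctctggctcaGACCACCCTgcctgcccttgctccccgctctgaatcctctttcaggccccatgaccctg

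Across the genome the site was more frequent in acetylated sequence found with purmorphamine alone. Peaks were cut into windows of 300 bp, and each was searched for GACCACCCA on both strands. It was found in 198 of 43932 windows (0.451%, 95% Wilson interval 0.392 to 0.518) from purmorphamine peaks that overlapped no control peak. In control peaks that overlapped no purmorphamine peak it was found in 94 of 48265 (0.195%, 0.159 to 0.238). Shared peaks lay between, with 0.305% (0.281 to 0.331) in the purmorphamine list and 0.286% in the control list. For comparison, 83 of 32851 RefSeq promoters of the same length (0.253%) held it. The intervals cover counting error only, and neighbouring windows are not independent. Median GC content was 46.7% in purmorphamine-only, 45.0% in control-only and 48.3% in shared windows, and its part in the difference was not tested.

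By gene, 61 of the 438 higher genes (13.9%) had the site in a purmorphamine peak and 13 (2.97%) had it in a control peak. Of the 726 lower genes, 13 (1.79%) had it in a purmorphamine peak and 36 (4.96%) in a control peak. Of the 10868 genes called in neither direction, 477 (4.39%) had it in a purmorphamine peak and 443 (4.08%) in a control peak. The calls were made on covered bp, and these shares follow the covered bp in part. Per covered Mb, higher genes held 12.9 sites with purmorphamine and 9.85 in control, lower genes held 6.28 and 5.97, and all other genes held 11.5 and 9.40.

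The 12 largest gains in covered bp ran from 69000 bp to 105150 bp, and 10 of the 12 were called higher. The median stretch of genome closest to these genes was 506 kb, against 54.3 kb over all genes compared. It was 498 kb for the 12 largest losses, so a long stretch was shared by both sets. In purmorphamine, 44.4% of their covered bp lay in peaks with no control counterpart, against 15.6% over the whole list. For 9 of the 12, the other genes within 2.5 Mb also held more covered bp with purmorphamine, as did those of 33.03% of all genes. Because nearest start decides the gene, a gain far from any gene is credited to the closest one.

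Ccdc3, which encodes a secreted coiled-coil protein, held 97500 bp in 155 peaks with purmorphamine and 1550 bp in 7 peaks in control (log2 ratio 5.27), while its surroundings had a ratio of 0.992. Inhba, which encodes the activin A subunit, held 114400 bp in 184 peaks against 34600 bp in 53 (1.70), and its surroundings a ratio of 2.52. Within 100 kb of its start the log2 ratio of Inhba was 0.64, and against its surroundings 0.38. The ratio over the other genes near Ccdc3 was thus close to 1, unlike that near Inhba. Near Inhba, most of the purmorphamine bp in that sum (121650 bp against 48250 bp) came from Mplkip, the next gene compared, with 92850 bp against 12300 bp.

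Tmem174 held 76750 bp against 5850 bp (3.50) and the predicted gene Gm10320 next to it held 87750 bp against 10500 bp (2.95). The best purmorphamine peak at Tmem174 ranked 16 in its list and the best control peak there ranked 18071. Gm10295, also a predicted gene, held 128000 bp in 194 peaks against 24250 bp in 55 (2.35), with 3550 bp in WT and 450 bp in Shh-/- limb buds. Trp63, which encodes the p53 relative p63, held 95600 bp against 22600 bp (2.03), and Rasl11b, a RAS-like GTPase gene, 109400 bp against 28100 bp (1.92).

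Sstr4, a somatostatin receptor gene, held 120450 bp against 49050 bp (1.28), but its log2 ratio was 0.15 against its surroundings. Those surroundings include its neighbours Foxa2, Thbd, Cd93 and Nxt1, which were also called higher. Adamts5, an aggrecanase gene, held 193400 bp against 100450 bp (0.94), and Zmiz1, a transcriptional coregulator gene, 206350 bp against 137350 bp (0.58), so neither was called. The assignment decided the sign of Zmiz1, which was -0.64 over its gene body with 20 kb on either side. Rfpl4b held 204150 bp against 99000 bp (1.04) and Mplkip 92850 bp against 12300 bp (2.82), yet both turned negative over the gene body, at -0.38 and -0.34. Mplkip was at -0.60 within 100 kb of its start and at -0.34 when the starts of all coding transcripts were used. The extra bp credited to these 2 genes thus lay mostly outside those windows.

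The 12 largest losses, purmorphamine minus control, ran from -98050 bp to -50850 bp, and 9 of these genes were called lower. Of their control bp, 27.6% lay in peaks with no purmorphamine counterpart, against 15.6% over the whole control list. These loci were chosen for more bp in control, so this share is a description. The surroundings of 8 of the 12 also held less, which is close to the 66.8% over all genes. Bnc1, which encodes the zinc finger protein basonuclin, held 10150 bp in 27 peaks with purmorphamine and 79900 bp in 65 peaks in control (log2 ratio -2.86). Thbs1, the matrix glycoprotein thrombospondin, held 15700 bp in 44 peaks against 68450 bp in 113 (-2.06), and over its gene body with 20 kb on either side it was at -0.78. Rbpj, the transcription factor of the Notch pathway, held 30350 bp against 83050 bp (-1.42), and Phex, an endopeptidase gene of phosphate balance, 43250 bp against 141300 bp (-1.69).

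Fam135b held 12650 bp against 64000 bp (-2.25), AI593442 held 49300 bp against 146850 bp (-1.56), Ttc32 held 47100 bp against 128700 bp (-1.43) and Cox6c, a cytochrome c oxidase subunit gene, 44600 bp against 98950 bp (-1.13). Cox6c was at -0.37 over its gene body and Ttc32 at -0.94 against its surroundings. Lrmda held 42850 bp against 93700 bp (-1.11), but 0.88 on the log2 scale within 100 kb of its start. The 3 loci not called were Rgma, a guidance molecule and BMP co-receptor gene, with 83400 bp against 135700 bp (-0.70), Tnr, the matrix protein tenascin-R, with 106100 bp against 168200 bp (-0.66), and Mctp2 with 215900 bp against 272550 bp (-0.33). The plot of gains and losses shows both sets to scale.

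**Figure D3:**
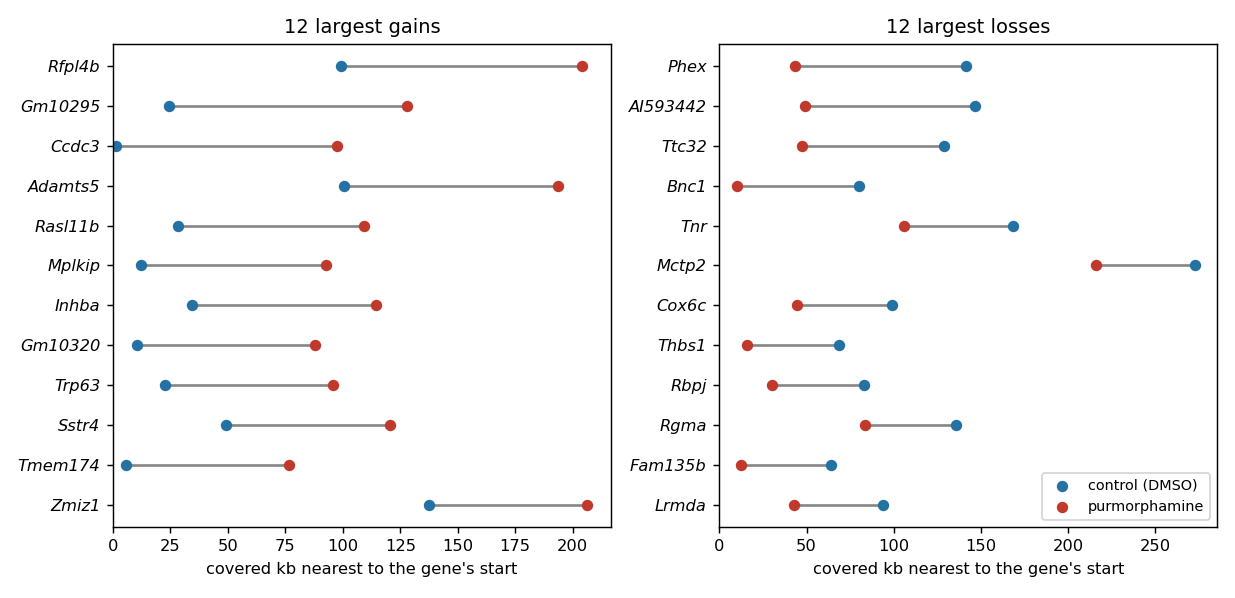
Covered bp per gene (horizontal axis, in kb) with purmorphamine and in DMSO control for the 12 genes with the largest gain and the 12 with the largest loss, 1 pooled list per group. Ccdc3 and Tmem174 start from under 6 kb in control, whereas Zmiz1 and Mctp2 are among the most covered loci in both lists.

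In relation to the level in control, loci with almost no control peak led. After Ccdc3 came Hsd17b3, a steroid dehydrogenase gene that lies beyond Ercc6l2 from Ptch1, with 42950 bp in 52 peaks against 150 bp in 1 peak (log2 ratio 5.26). None of its 52 purmorphamine peaks overlapped a control peak, and limb buds held 4750 bp in WT and none in Shh-/-. Gm12830 held 35650 bp in 59 peaks against 350 bp in 2 (4.76), with 3450 bp in WT and none in Shh-/- limb buds. Ccdc34 (65050 bp against 1900 bp, 4.51), Inpp5d (24000 bp against 450 bp, 4.11), Rps6kl1 (13600 bp against none) and Tmem171 (36650 bp against 2000 bp, 3.65) were also among the 8. Of the purmorphamine bp at these 8 loci, 84.7% lay in peaks without a control counterpart, against 15.6% over the whole list. These loci and the largest gains were chosen for more bp with purmorphamine, so the shares are a description.

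At the other end stood the chemokine gene Ccl11, with 150 bp against 12150 bp (-3.52), and Ccl2, a monocyte attractant, with 1700 bp in 7 peaks against 19700 bp in 22 (-2.94). The control list covered the Ccl2 start and the purmorphamine list did not. Pgm5 (none against 9050 bp) and Nefl (none against 7200 bp) had no purmorphamine peak. Slc35b3 held 2200 bp against 28000 bp (-3.18) but -0.03 on the log2 scale within 100 kb of its start. Zfp957 (4100 bp against 43150 bp, -3.11) and Adra1b, an adrenergic receptor gene (850 bp against 11450 bp, -2.75), were also in this set. All 8 had surroundings with less coverage as well, at ratios of 0.411 to 0.891.

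Genes called in the same direction lay next to each other in many places. Of the higher genes, 141 (32.2%) neighboured another higher gene, in 58 runs of up to 6 genes. Of the lower genes, 228 (31.4%) neighboured another lower gene, in 99 runs. Higher genes were 3.64% and lower genes 6.03% of all genes compared, so these shares do not start from the same baseline. The shares expected from position alone were not tested. Nearest start can also split a block of peaks between adjacent genes, so calls of neighbours are not independent. Ptch1, Ercc6l2 and Hsd17b3 formed one run on chromosome 13 whose starts span 516 kb. It held 105550 bp with purmorphamine and 6950 bp in control, and 18350 bp in WT against 4050 bp in Shh-/- limb buds. Ercc6l2, a DNA repair helicase gene named here after its values were seen, held 50250 bp of it against 3400 bp.

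Further along the same chromosome, Gm21976, Btf3, Foxd1, Gm10320, Tmem174 and Tmem171 held 239900 bp against 23450 bp over 415 kb. Foxc1, Gmds and Mylk4 held 133950 bp against 26700 bp, and Inhba and Mplkip 207250 bp against 46900 bp. Chromosome 13 as a whole held 1.21 times as many covered bp with purmorphamine as in control. There 28 genes were higher (6.00% of those compared) and 26 lower (5.57%), beside 3.64% and 6.03% of all genes. On chromosome 2, 59 genes were higher (6.22%) and 54 lower (5.69%), so the share of higher genes was not particular to chromosome 13. Chromosomes 2 and 16 had ratios of 1.06 and 1.04, and all others were under 1. The chromosome 13 sums, 3139550 bp against 2593250 bp, include the runs of Ptch1, Foxd1, Foxc1 and Inhba. These runs are thus part of the ratio of 1.21, and the chromosome without them was not tested. Gli1, on chromosome 10, had surroundings at 0.974.

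The longest lower run, on chromosome 11, held Asic2 and 5 neighbours at the chemokine cluster (Ccl2, Gm17268, Ccl7, Ccl11 and Ccl8). It was covered over 4550 bp with purmorphamine and 55700 bp in control, with gene starts 147 kb apart. Limb buds held 4100 bp in WT and 3850 bp in Shh-/- over the same genes. Hdgfl3, Bnc1 and Sh3gl3 held 16100 bp against 117550 bp. The members of these runs were named after their values were seen. The map of both neighbourhoods shows the peaks themselves.

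**Figure D4:**
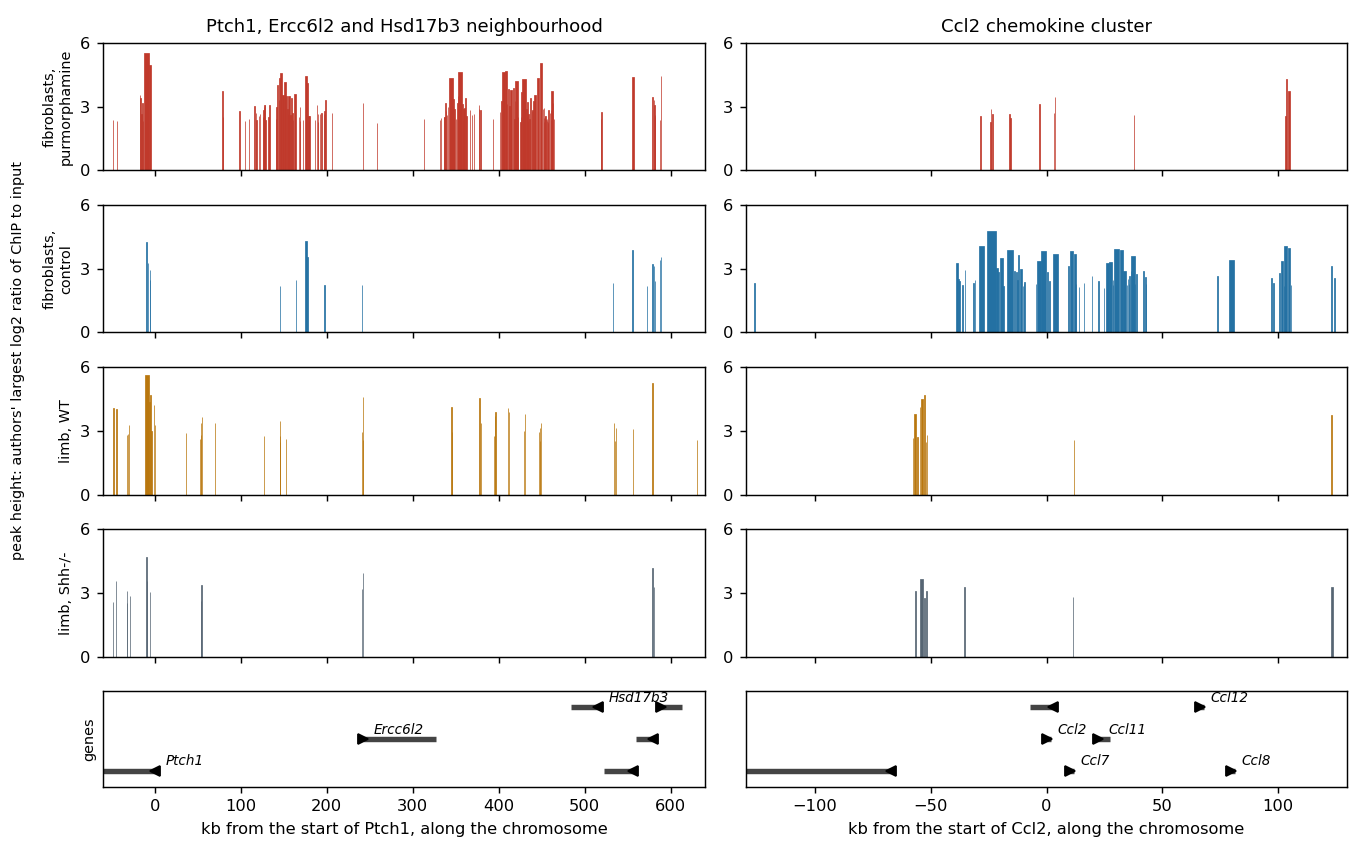
Peaks around Ptch1 (left) and Ccl2 (right) by distance from the gene start in kb (horizontal axis), with the largest log2 ratio of ChIP over input of each peak as its height, for the purmorphamine, DMSO control, limb WT and limb Shh-/- lists, above the coding genes with arrowheads at their starts. Clusters of peaks stand between Ptch1 and Hsd17b3 with purmorphamine where control has few, and the Ccl2 cluster shows the opposite.

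The inflammatory list held 5 lower genes, more than any other list. Of 18 members compared, 0 were higher and 5 lower, beside 3.64% and 6.03% of all genes. The median log2 ratio was -0.67, and 14 of the 18 held less with purmorphamine, beside 6927 of all 12032 genes. The 5 were Ccl2, Ccl7 (none against 2950 bp), Lif (6650 bp against 15550 bp), the neutrophil attractant Cxcl5 (1900 bp against 5050 bp) and Nfkb1 (4900 bp against 11600 bp). Ptgs2, which encodes an inducible cyclooxygenase, held 16050 bp against 27350 bp (-0.73) and Irf1 10550 bp against 9600 bp (0.12). Of 8 osteogenic and chondrogenic genes, 0 were higher and 3 lower (median -0.40). The lower ones included the transcription factor genes Runx1 (21850 bp against 55200 bp, -1.30) and Twist1 (6750 bp against 18050 bp, -1.30), while Sox9 held 66800 bp against 61650 bp (0.11).

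Of 23 genes in the FGF and receptor list, 3 were higher and 2 lower (median -0.18), beside 3.64% and 6.03% of all genes. Spry1, a feedback inhibitor of receptor tyrosine kinases, was higher with 9600 bp against 2700 bp (1.52) but at 0.44 over its gene body with 20 kb on either side, and its relative Spry2 was lower with 19500 bp against 41350 bp (-1.05). Against its surroundings Spry2 was at -0.20. Fgf18 (5500 bp against 1950 bp) and Pdgfb (4300 bp against 1250 bp) were higher and the receptor gene Met (13850 bp against 29150 bp) lower. Of 21 TGF-beta and BMP genes, 1 was higher (Inhba) and 0 were lower (median 0.04). Of 20 Wnt genes, 0 were higher and 3 lower (Fzd8, Wnt4 and Sfrp2, median -0.11).

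Of 23 matrix genes, 0 were higher and 1 lower (Thbs1, median -0.10), beside 3.64% and 6.03% of all genes, and Col1a1, which encodes a type I collagen chain, held 32500 bp against 30500 bp (0.09). Of 19 contractile genes and targets of SRF or YAP, Ccn2, a matrix signaling gene, was higher with 33150 bp against 13900 bp (1.20) and Palld, an actin-associated scaffold gene, was lower with 3250 bp against 12850 bp (-1.70), with a median of -0.11. None of 16 AP-1 and immediate early genes was called (0 higher, 0 lower, median -0.02), although Myc held 46650 bp against 82200 bp (-0.80) and Jun 34950 bp against 57950 bp (-0.71, or 0.21 against its surroundings).

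The counts in the remaining lists also stand beside 3.64% higher and 6.03% lower over all genes. Of 8 adipogenic genes, 1 was higher (Lpl, 3100 bp against 450 bp) and 1 lower (Pparg, the main adipogenic regulator, 3850 bp against 9300 bp), with a median of 0.20. Of 22 cell cycle genes, 1 was higher (Gas6, 3850 bp against none) and 1 lower (Mki67, 2350 bp against 6500 bp), with a median of -0.09. Of 16 housekeeping genes, 2 were higher (Ppia, 6550 bp against 2550 bp, and Rps18, 1100 bp against none) and 0 lower (median -0.13). The Rps18 start was covered in both lists, in control by a peak assigned to another gene. Of 13 fibroblast markers, 0 were higher and 1 lower (Twist1, median -0.21). Of 7 markers of other cell types that could be compared, Pecam1 was higher (2550 bp against none) and Gfap lower (none against 1050 bp), with a median of 0.68. The median list values lie between -0.67 and 0.68, as the plot of gene lists shows.

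**Figure D5:**
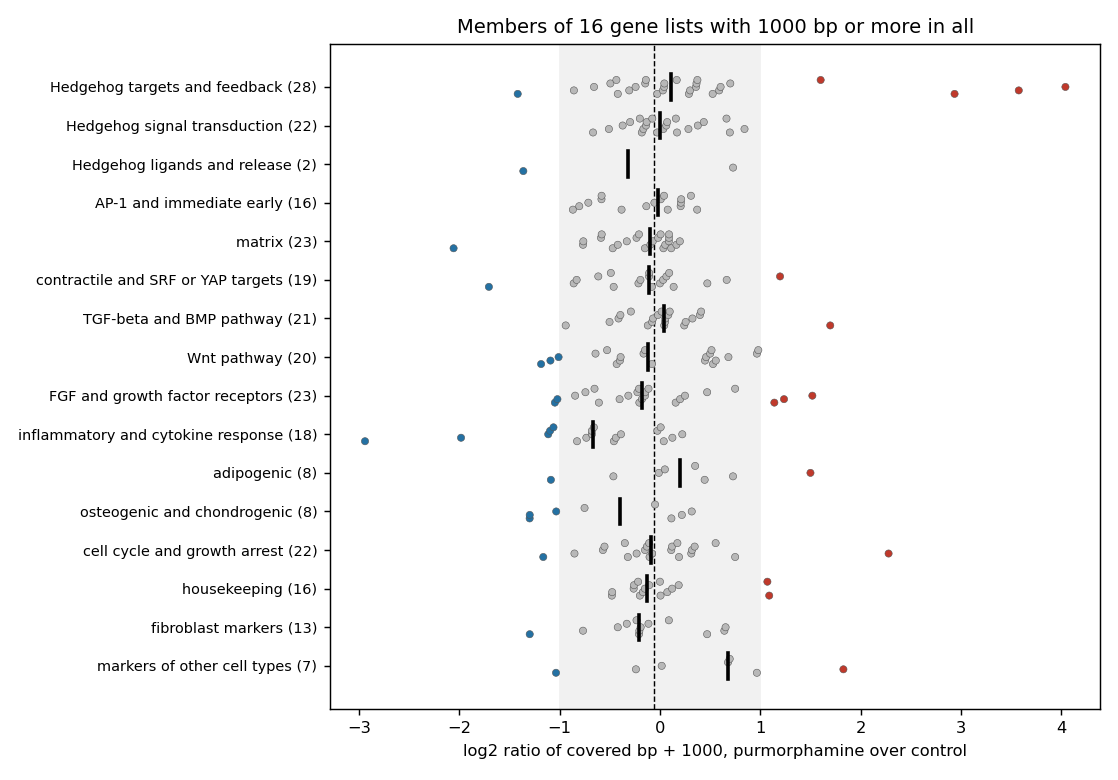
Log2 ratio of covered bp with 1000 bp added, purmorphamine over DMSO control (horizontal axis), 1 point for each compared member of 16 gene lists (rows, with the number of members), black bars at the list medians, a dashed line at the median of all genes (-0.06) and shading for ratios inside 2-fold. The inflammatory members lie mostly left of 0, with a median of -0.67, and the HH signal transduction members all lie inside the shading.

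The difference between the lists lay mostly away from promoters. Within 1 kb of a coding start the lists covered almost the same length (ratio 1.00), and 9.38% of purmorphamine peaks and 8.99% of control peaks there had no counterpart. At 10 to 100 kb the ratio was 0.910, and 41.2% and 47.8% had none. Beyond 100 kb 45.7% and 49.7% had none. Over the whole lists, peaks without a counterpart had a median width of 200 bp in both, against 550 bp (purmorphamine) and 600 bp (control) for shared peaks. Their median log2 ratio over input was 2.51 and 2.41, against 3.11 and 3.15. The part of peak width and strength in the shares without a counterpart was not tested. Of the bp covered with purmorphamine alone, 9.92% lay within 1 kb of a start and 45.7% at 10 to 100 kb. Widening and narrowing of shared peaks made up a large part of the difference, with 7.90 Mb of the 16.7 Mb covered with purmorphamine alone and 11.1 Mb of the 20.5 Mb covered in control alone.

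Called genes less often had a peak at the start in both lists than all genes compared. Of the higher genes, 243 (55.5%) had a peak at the start in both lists, 62 with purmorphamine only and 133 in neither. Of the lower genes, 342 (47.1%) had a peak at the start in both lists, 73 in control only, 5 with purmorphamine only and 306 in neither. Over all genes compared, 81.0% had one in both. A peak in both lists adds bp to both sides of the ratio, so the lower share is in part set by the call itself. The higher genes gained 4125 bp at the median, and 120 of them had no control peak. The lower genes had a median difference of -3400 bp, and 153 had no purmorphamine peak. Near the threshold, Prss38 was just inside with 24200 bp against 11600 bp, and Tec was just outside with 7150 bp against 3100 bp.

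Loci that gained acetylation in fibroblasts were set beside those with less acetylation in limb buds that lack Shh. The limb lists came from pooled forelimbs of embryos and, by the labels, another H3K27ac antibody, and they covered 23.2 Mb in WT and 19.7 Mb in Shh-/-, so levels are not compared between tissues. Of the 6811 genes that could be compared in both, 2.5% were at least 2-fold higher in WT limb and 0.499% at least 2-fold higher in Shh-/- limb. Of 207 genes higher with purmorphamine, 27 (13.04%) were higher in WT limb and 7 (3.38%) higher in Shh-/-. Of 335 genes lower with purmorphamine, 29 (8.66%) were higher in WT limb and 4 (1.19%) in Shh-/-. Genes called in neither direction gave 1.82% and 0.367% of 6269. Both sets of called genes thus lay above the share over all genes in both limb directions. Among the HH genes, Gli1 (2300 bp in WT against none) and Ptch1 (9650 bp against 3250 bp) were in the first set.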

How the data were processed

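H3K27ac ChIP-seq peak lists of NIH3T3 cells (2 libraries per treatment) and of limb buds were used. The submitters' processing notes name the aligner Bowtie2 (2.2.5) and mm10. Peak calling by the authors used CisGenome (2.1.0) with replicates combined and input as background, and they deposited 1 pooled list per group. The deposited columns hold a peak rank, position, a score (maxT), the largest log2 ratio of ChIP over input and the FDR as a q-value (at most 0.000805 with purmorphamine, 0.00268 in control), and the authors' −log10 of the smallest Poisson p-value. Only position and rank entered the main results. Coordinates are given as in the files. The sources used here do not state whether they count from 0 or 1, and sequences were read as 1-based. Read depth cannot be had from the lists.

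Peaks on unplaced scaffolds (30 and 34) were left out. Peak midpoints were assigned to the nearest protein-coding gene start of GENCODE vM21 (GRCm38.p6, the same build), and covered bp were summed per gene in Python (3.11.15, pandas 2.3.3) and checked with bedtools (2.31.1). With 1 list per group no test was run. Genes were called at 2-fold after adding 1000 bp. On simulated lists of purmorphamine against control with 4000 genes, 100 of 100 genes made 4-fold higher and 100 of 100 made 4-fold lower were called. The simulated peaks lay close to well-separated starts and changed by more than the 2-fold line. This checks the sums and the call, not the assignment of distant peaks.

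Named were the 12 largest gains and losses in bp, the 8 largest and smallest log2 ratios among genes with at least 3000 bp in the higher list, called and core HH genes, the best unshared peak of each list and, from each other list, the 2 largest gains and losses. Further members are named to complete counts, after their values were seen. Genes and lists were chosen with earlier results of these data known. The other 3 lists of the series were not used, and results for some named items are not reported here. Alternatives changed the peak set, assignment, scaling, added bp, minimum and fold.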

Additional observations from a re-analysis of the deposited data

Results flagged for a closer look

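Lrmda, named among the largest losses, was called one way in fibroblasts and the other way in the limb, as were 29 of the genes lower (Lrmda included) and 7 of the genes higher with purmorphamine. The log2 ratio of covered bp was -1.11 for purmorphamine over control in NIH3T3 cells (42850 bp against 93700 bp) and 1.09 for WT over Shh-/- in limb buds (20800 bp against 9250 bp). Within 100 kb of its start the fibroblast ratio was 0.88, which has the sign of the limb ratio. Each value rests on 1 pooled list per group, and the difference was not tested.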

How the results depend on the processing

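No paired analysis was possible because the authors pooled the replicates before peak calling, and for the same reason no replicate could be left out. The ratio of total covered bp lay between 0.934 and 0.945 in every alternative. The number of higher genes was 438 and became 672 when peaks within 1 kb were merged, 166 with 4000 bp added, 250 with a minimum of 5000 bp and 166 at 3-fold. The number of lower genes was 726 and became 450 over gene bodies with 20 kb on either side, 1131 with 250 bp added, 154 with 4000 bp added, 389 with a minimum of 5000 bp and 169 at 3-fold. With local scaling they were 592 and 656, and with control scaled to the purmorphamine total 477 and 573. The higher HH targets numbered 4 or 5 in every alternative, and they held the same 4 genes in all but local scaling, where Ptch1 was not called and Cdon was. The lower ones numbered 2 within 100 kb of the start (Grem1 and Mycn), 0 with local scaling and 0 at 3-fold. Over gene bodies with 20 kb on either side the 1 lower member was Grem1 and not Mycn. The share of purmorphamine bp also covered in control, 70.4%, was 72.6% in the better-ranked 50% of peaks and 73.4% with merging, and that of control, 66.0%, was 67.8% and 69.3%. The promoter share of bp covered in 1 list only was 12.96% and 10.2% (purmorphamine and control) in the better-ranked 50%, 8.20% with merging (purmorphamine), and 6.46% and 4.96% within 500 bp. GACCACCCA was in 0.524% of purmorphamine-only windows of the better-ranked 50%, and with 1 mismatch allowed in 7.86% (purmorphamine only), 5.97% (control only) and 7.01% (shared). Among called genes, the signs that reversed were Rfpl4b at -0.38 over the gene body, Mplkip at -0.60 within 100 kb, -0.34 over the gene body and -0.34 with all transcripts, Lrmda at 0.88 within 100 kb and Mycn at 0.019 with local scaling. Named genes that were not called also turned, among them Zmiz1 (-0.64 over the gene body) and Jun (0.21 with local scaling). Of 48 named called genes, 27 were called in every alternative that compared them, among them Gli1, Foxd1, Hsd17b3, Ccdc3, Ccl2 and Bnc1. The 21 that were not included Ptch1 (lowest log2 ratio 0.40), Inhba (0.38), Spry1 (0.44), Ppia (0.69) and Ccn2 (0.92), and with their highest values Met (-0.66), Pparg (-0.76), Runx1 (-0.85) and Palld (-0.99). The causes were not tested.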

Other observations

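Some starts were covered in one list only. With purmorphamine alone a peak lay within 1 kb of 154 gene starts, and at 18 of these it covered at least 1000 bp. The whole window of 2001 bp was covered at Gli1, Gm10320 and Tmem174, at Pgf, a growth factor gene of the VEGF family (31950 bp against 3950 bp over the locus), and at Sox18, a transcription factor gene of vessel formation (11450 bp against 700 bp). In control alone it lay within 1 kb of 183 starts, and at 18 of these it covered at least 1000 bp. The chemokine genes Ccl8 (1786 bp), Ccl2 (1701 bp) and Ccl7 (1463 bp) were among them, as were Dpt, which encodes the matrix protein dermatopontin (1695 bp), and Itgb2, a leukocyte integrin gene (1103 bp). Pgf, Sox18, Dpt and Itgb2 were chosen after their values were seen.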
